A study of Mus musculus with 231 samples.

Results

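The microRNAs mmu-miR-122-5p, mmu-miR-192-5p and mmu-miR-194-5p (written without the species prefix from here), which are abundant in liver, were followed in blood mononuclear cells of mice induced to express the Cbfb-MYH11 (CM) leukemia fusion gene and of control mice. The members were taken by name, and all 3 were listed in each of the 3 deposited tables, among 1863 miRNAs in the raw counts of the training cohort, 1895 in its table of CPM (counts per 1000000 reads) and 1817 in the CPM table of the validation cohort. The training cohort held 53 libraries from 7 CM mice and 76 from 7 control (Ctrl) mice bled from month 0 to month 10, and the validation cohort held 60 libraries from 10 CM mice and 42 from 6 Ctrl mice. CM mice carried the conditional Cbfb56M/+ allele and Mx1-Cre (labelled CHW) on a C57BL/6 background. Ctrl mice were littermates that the labels describe as without the transgene, and their genotype is given as CW (4 training mice), HW (2 mice) or WT (1 mouse), codes that are not explained. The study's methods name Cbfb56M/+ mice without Mx1-Cre among the controls, so some Ctrl mice may have carried the allele without its induction. At an age of 6 to 8 weeks both groups received 7 doses of poly(I:C) at 14 mg/kg, so the interferon response to poly(I:C) is shared by the controls. Mx1-Cre is driven by an interferon-responsive promoter that is also active outside blood, and in liver above all, so the recombined cells are not limited to the marrow. The training arms held 4 female and 3 male CM mice and 2 female and 5 male Ctrl mice.

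A microRNA loads into an Argonaute protein and pairs with messenger RNAs mainly through its seed, the bases near its 5′ end, which lowers their stability and translation. miR-122 is the dominant microRNA of hepatocytes and is a common plasma measure of liver injury. miR-192 and miR-194 are made together from paired genes, are high in liver, gut and kidney epithelium, and respond to p53 and hepatocyte nuclear factors; miR-215 is the close relative of miR-192.

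The mature sequences are shown because they define which of these microRNAs can share targets and reads. They are from RefSeq (GRCm38.p6), where 2 of the 3 members matched, in the direction 5′ to 3′ and with the seed (bases 2 to 8) in capitals.
mmu-miR-192-5p: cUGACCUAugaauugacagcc
mmu-miR-215-5p: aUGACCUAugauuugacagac
mmu-miR-194-5p: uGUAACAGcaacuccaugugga
miR-192-5p and miR-215-5p are the only mature sequences with the seed UGACCUA among the 1679 mouse names in that table, and they differ at 3 bases, which are C1A, A12U and C20A when read from miR-192-5p to miR-215-5p and counted from 1 at the 5′ end. miR-194-5p has the seed GUAACAG, which no other mature name holds, and its sequence is the same from both of its genes. Mir194-2 (chr19:6264643-6264728) and Mir192 (chr19:6264844-6264932) lie side by side on the plus strand, with no other RefSeq gene over them. Mir194-1 (chr1:185313319-185313385) and Mir215 (chr1:185313581-185313692) lie side by side on the plus strand within Iars2, the mitochondrial isoleucyl-tRNA synthetase gene, which is on the opposite strand; in the older mm9 gene annotation no exon of Iars2 overlaps either of them, so both are intronic. Opposite arms of the hairpins were few: over the training libraries the reads recovered from the CPM table summed to 409 for miR-194-2-3p and 146 for miR-194-1-3p, against 393990 for miR-194-5p. miR-192-3p summed to 457 reads, miR-215-3p to 161 and miR-122-3p to 4.

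Raw totals were 1792809 to 7958411 reads in the training libraries. In the validation cohort the 12 libraries of point 5 held 1645456 to 5445215 recovered reads, and the other 90 libraries held 1744 to 76906. The labelled cell type was checked against 7 leukocyte miRNAs (such as miR-142a, miR-150-5p and miR-223-3p), which were above 0 in every training library and had a median sum of 118161 CPM. The 5 erythroid miRNAs, which mark red cells, had a median sum of 75338 CPM and a range of 11766 to 536013 CPM. Of these, miR-486a-5p and miR-486b-5p share reads and have the same median of 19221 CPM. All erythroid sums given here count these reads for both and are too high by that. The 17 miRNAs of muscle, epithelium, pancreas, nervous system and vessel wall had a median sum of 2963 CPM, among them miR-203-3p (602 CPM in the median), miR-200c-3p (555 CPM), miR-143-3p (452 CPM) and miR-1a-3p (186 CPM). Of these 17, 4 were at 0 in some libraries (miR-216a-5p and miR-217-5p of the pancreas, miR-124-3p of neurons and miR-206-3p of muscle, with 120 libraries at 0 for miR-216a-5p and 68 for miR-124-3p), and 13 were at 0 in none. The running numbers in the sample titles cross between CM mouse 3334 and Ctrl mouse 3335 after month 5: from then on each carries numbers that continue the run of the other. Results were therefore also computed without these 2 mice, while the groups follow the labels.

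The 3 members did not form 1 group in these cells. In the deposited CPM miR-194-5p was the highest, with 193 to 1820 CPM and a median of 722 CPM over the training libraries, and it ranked 88 of 1895 by its mean. miR-192-5p ranged from 111.5 to 1161 CPM with a median of 303 CPM. miR-122-5p ranged from 0.217 to 16.6 CPM with a median of 2.06 CPM and ranked 475, and its raw count was between 1 and 98 reads and at 3 reads or fewer in 17 libraries. The highest miR-122-5p value of any library was thus below the lowest value of either of the others. miR-215-5p lay between them, with a median of 8.70 CPM and a range of 0.971 to 44.7 CPM.

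**Figure D1:**
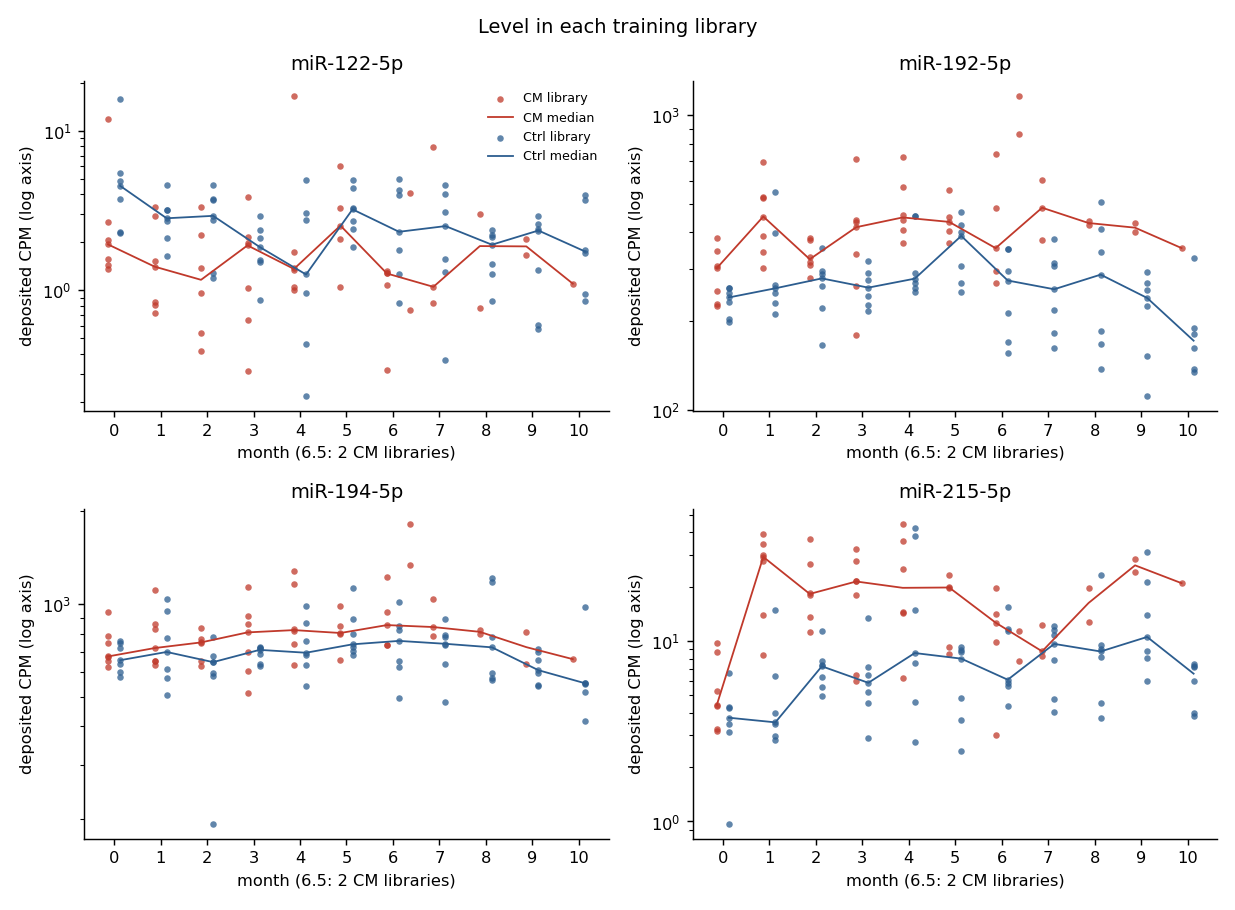
Deposited CPM (log axis) of miR-122-5p, miR-192-5p, miR-194-5p and miR-215-5p in every training library by month, with 1 point a library in red for CM and blue for Ctrl, and a line through the median of each arm (the 2 CM libraries of month 6.5 are not in the line). The miR-192-5p medians of CM lie above those of Ctrl in every month from 0 to 10, while miR-122-5p has no such order.

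Across libraries miR-192-5p and miR-194-5p varied together, with a Spearman correlation of 0.77 over all training libraries, 0.77 over the 53 CM libraries and 0.76 over the 76 Ctrl libraries. miR-122-5p did not follow either: its correlation with miR-192-5p was -0.31 over all libraries, -0.08 within CM and -0.27 within Ctrl, and with miR-194-5p it was -0.19, -0.01 and -0.23. miR-215-5p, which shares the seed of miR-192-5p and a gene pair with miR-194, correlated at 0.58 with miR-192-5p over all libraries but at 0.37 within CM and 0.35 within Ctrl libraries. With miR-194-5p it correlated at 0.30 over all and at 0.09 and 0.15 within the arms. These values describe libraries that share mice, months and scaling, and low counts weaken those of miR-122-5p. By the raw counts over the training libraries and 329 miRNAs, the patterns most like miR-192-5p were miR-148b-3p (Spearman 0.83), miR-484 (0.79) and miR-1955-5p (0.78). Those most like miR-122-5p were miR-139-3p (0.50), miR-5107-5p (0.49) and miR-574-5p (0.44). For miR-194-5p the likeness was weak in the raw counts, with miR-93-5p (0.35), miR-148b-5p (0.34) and miR-499-5p (0.31), and it was 0.83 for miR-93-5p and 0.72 for miR-148b-3p in the deposited CPM.

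**Figure D2:**
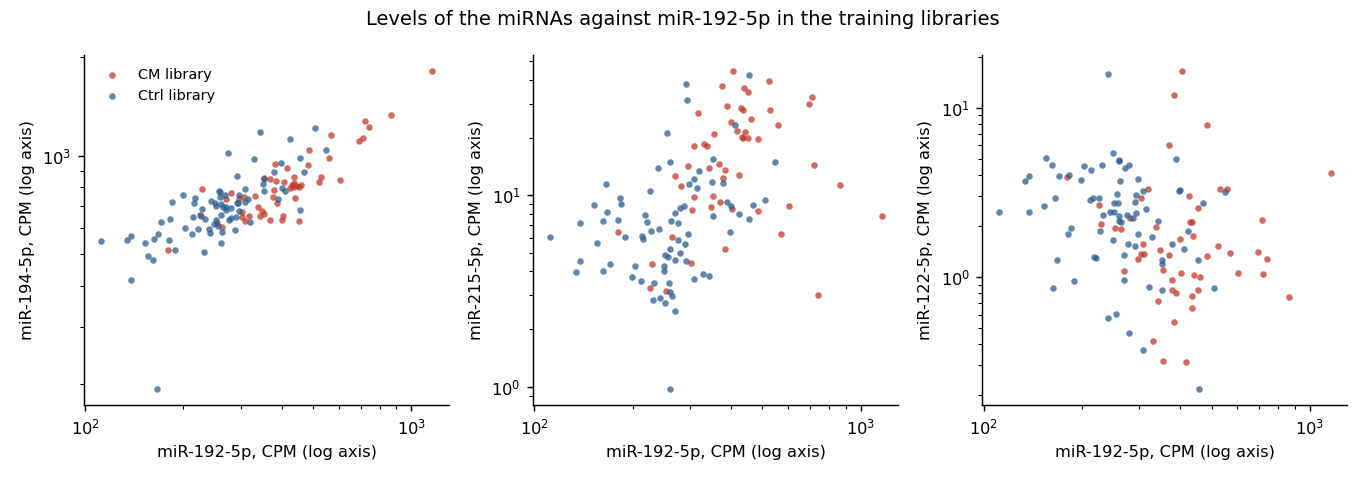
Deposited CPM of miR-194-5p, miR-215-5p and miR-122-5p (y axes) against miR-192-5p (x axes), all on log axes, with 1 point for each training library in red for CM and blue for Ctrl. miR-194-5p rises along miR-192-5p (Spearman 0.77) and miR-122-5p does not (-0.31).

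The deposited tables counted miR-194-5p differently. In 57 training libraries its raw count was 0.0461 to 0.251 times the number of reads recovered from the CPM table for the same library, and in the other 72 it was 0.940 to 1.11 times that number, with nothing between. The low libraries were 26 of 53 from CM and 31 of 76 from Ctrl mice, and every month and every G number (a label of 7 values on the training libraries) held some. Of the miRNAs with a mean of 100 reads or more, the 21 with 2 genome copies in the RefSeq table had a median SD of 1.38 for the log2 ratio of the tables, against 0.05 for the 197 with 1 copy. miR-192-5p had 1.54 to 3.21 times as many raw counts as recovered reads, with a median of 2.00, and at month 1 this ratio was 1.62 to 2.05 in CM and 1.86 to 2.66 in Ctrl libraries. miR-122-5p had a median ratio of 1.08 and miR-215-5p of 1.34. What the counting did differently was not tested. Fits on the raw counts and the same fits on recovered reads are therefore shown side by side in a later figure. The text gives the latter for some comparisons only. Fits on recovered reads were added after the data were seen.

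**Figure D3:**
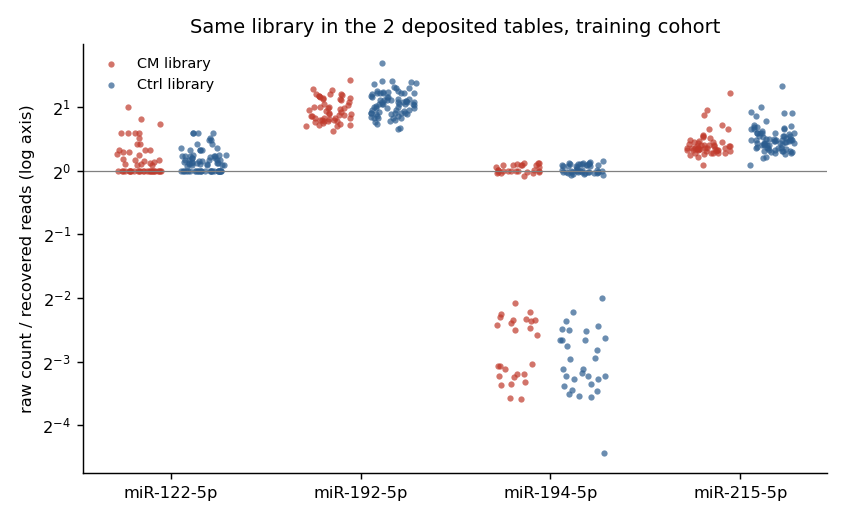
Raw count divided by the reads recovered from the deposited CPM (log axis) for the same training library, for miR-122-5p, miR-192-5p, miR-194-5p and miR-215-5p, with 1 point a library in red for CM and blue for Ctrl. miR-194-5p falls into 72 libraries near 1 and 57 at 0.251 or less, and miR-192-5p is centred on 2.00.

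miR-192-5p was higher in CM than in Ctrl mice over months 1 to 6. Each mouse was reduced to its mean log2(CPM + 1), and as CPM these means were 305 (lowest), 412 (median) and 502 (highest) in the 7 CM mice and 230, 294 and 324 in the 7 Ctrl mice. The Ctrl mice had a library in each of these months, but some CM mice did not, and mice 3338 and 3357 ended at month 4. Of the 7 CM mice 6 lay above every Ctrl mouse, and mouse 3334 lay among them. The difference was 0.52 on the log2(CPM + 1) scale (8.68 ± 0.24 against 8.16 ± 0.15, SD, n = 7 each), with a two-sided exact permutation p = 0.00117 and an adjusted p of 0.00697 over the 610 miRNAs tested in the same way, of which 33.8% were called. It was 0.60 without mice 3334 and 3335, and 0.37 with CPM from the raw counts (TMM), with an adjusted p of 0.0188 by the exact permutation test. Over months 1 to 4 alone the difference was 0.50, with an adjusted p of 0.0243 in that test. Within the 7 G numbers, with the months pooled, CM was higher in 6, and the median difference over all 7 was 0.61. There libraries of the same mouse count separately, and the arms are not matched by month. In bulk libraries of this kind, more cells that hold a miRNA and more of it per cell cannot be told apart.

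miR-194-5p followed in the same direction with a smaller difference. Mouse means were 669, 797 and 907 CPM (lowest, median, highest) in CM and 557, 708 and 773 CPM in Ctrl mice, and 5 CM mice lay above every Ctrl mouse. The difference of 0.21 (9.65 ± 0.14 against 9.44 ± 0.16, SD, n = 7 each) had an exact permutation p = 0.0216 and an adjusted p of 0.0592, so it was not called. Without mice 3334 and 3335 it was 0.25, with an adjusted p of 0.0181 by the exact permutation test. The raw counts gave -0.26 and an adjusted p of 0.661 in that test.

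miR-122-5p lay in the other direction. Mouse means were 0.833, 1.61 and 3.36 CPM in CM and 1.68, 2.56 and 3.31 CPM in Ctrl mice. Of the CM mice 5 lay below every Ctrl mouse, while mouse 3334 lay above them all. The difference of -0.37 (1.39 ± 0.40 against 1.75 ± 0.26, SD, n = 7 each) had an exact permutation p = 0.0717 and an adjusted p of 0.145. Without mice 3334 and 3335 it was -0.48, with an adjusted p of 0.0292 by the exact permutation test. Leaving out mouse 3334 alone also gave a call, with an adjusted p of 0.0202 in that test. With all mice and log2(CPM + 0.1) the difference was -0.57, with an adjusted p of 0.114 in that test. On that scale 3 CM mice lay below every Ctrl mouse and 0 above them all. Over months 1 to 4 alone, on the log2(CPM + 1) scale, it was -0.24 with an adjusted p of 0.549.

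Of the miRNAs shown here, miR-215-5p, the seed partner, had the largest difference. Mouse means were 12.6, 16.8 and 24.7 CPM in CM and 5.06, 6.71 and 9.07 CPM in Ctrl mice, without overlap. The difference of 1.23 had an exact permutation p = 0.000583, the smallest that 7 against 7 mice allow, and an adjusted p of 0.00444. Of the 610 miRNAs tested in the same way 33.8% were called. The share of all miRNAs without overlap was not computed, so no conclusion is drawn from the lack of overlap.

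**Figure D4:**
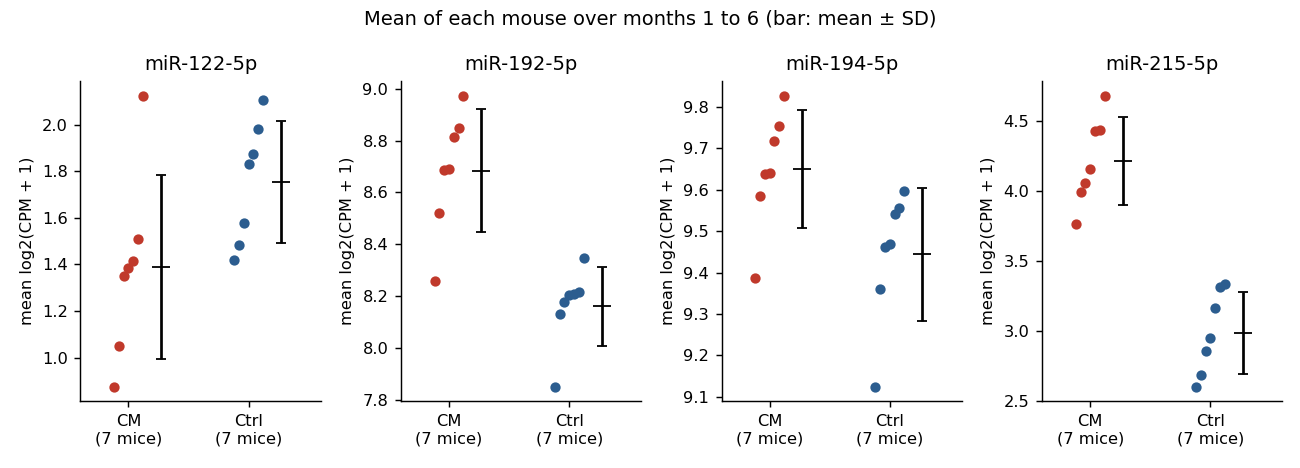
Mean log2(CPM + 1) of each mouse over its libraries of months 1 to 6 for miR-122-5p, miR-192-5p, miR-194-5p and miR-215-5p, with 1 point a mouse (7 CM in red, 7 Ctrl in blue) and the group mean ± SD in black. The CM means lie above the Ctrl means by 0.52 for miR-192-5p, 0.21 for miR-194-5p and 1.23 for miR-215-5p, and below by 0.37 for miR-122-5p; the y axes do not start at 0.

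Month by month, edgeR's quasi-likelihood test on the raw counts of each month called none of the members. At month 0 it called 0.209% of 478 miRNAs. miR-192-5p was at 226, 303 and 383 CPM (lowest, median, highest) in CM and 200, 241 and 260 CPM in Ctrl mice at that point, and 4 of 7 CM mice were already above every Ctrl mouse. Its log2 fold change was 0.22 ± 0.11 (SE, edgeR adjusted p = 0.426). Whether month 0 blood was drawn before or after poly(I:C) is not given in the sources used here. At month 1, where 27.5% of 472 miRNAs were called, miR-192-5p was at 303, 453 and 692 CPM in CM and 212, 259 and 548 CPM in Ctrl mice. All 7 CM values lay above the Ctrl median, but Ctrl libraries at 548 and 398 CPM overlapped them. The log2 fold change was 0.28 ± 0.18 (edgeR adjusted p = 0.260), and 0.60 ± 0.24 (0.0690) on recovered reads.

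At month 2, with 13.5% of 481 called, the CM values of miR-192-5p were 281 to 384 CPM and the Ctrl values 166 to 353 CPM, and the difference on the log2 scale was 0.25 ± 0.14 (edgeR adjusted p = 0.222). At month 3, with 22% of 455 called, 5 of 7 CM libraries lay above every Ctrl library (180 to 711 against 216 to 320 CPM) and 1, at 180 CPM, lay below them all. The log2 fold change was 0.46 ± 0.18 (edgeR adjusted p = 0.0785). It was called on recovered reads (0.65 ± 0.22, adjusted p = 0.0374), without mice 3334 and 3335 (0.56 ± 0.18, 0.0408), and without mouse 3334 alone (0.56, 0.0218) or mouse 3336 alone (0.53, 0.0400). At months 3 and 4 the arms and the G numbers largely cannot be told apart: at month 3 a single G number held both arms, with 1 library of each (CM mouse 3334 and Ctrl mouse 3339), and at month 4 none did. The value with the G number as a term, -0.26 ± 0.47 (adjusted p = 0.804), thus rests on that pair. A fit over all training libraries with the G number, which treats libraries of the same mouse as separate samples, gave 0.48 ± 0.22 (0.194).

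At months 4, 5 and 6 edgeR called 0.837% of 478, 0% of 505 and 0% of 444 miRNAs. At an unadjusted p under 0.05 it had 21.6% of those tested at month 5 and 31 miRNAs at month 6, and DESeq2 called 21 and 0. The log2 fold changes of miR-192-5p were 0.55 ± 0.25 (edgeR adjusted p = 0.272) at month 4, 0.15 ± 0.15 (0.604) at month 5 and 0.60 ± 0.30 (0.706) at month 6, the last of which was 0.25 without mouse 3341. All of its 7 monthly values were above 0, and these months share mice, so they are not separate evidence. Its highest training values were in the 2 CM libraries labelled month 6.5, at 1161 CPM in mouse 3334 and 865 CPM in mouse 3336, where miR-194-5p was also at its highest of the training cohort (1820 and 1334 CPM).

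For miR-194-5p the raw counts gave log2 fold changes from -0.74 to 0.38 over months 0 to 6 with standard errors of 0.60 to 0.78. The part of the split between tables in these errors was not tested. On recovered reads the values were 0.12, 0.10, 0.28, 0.26, 0.34, 0.02 and 0.25 for months 0 to 6, with standard errors of 0.12 to 0.25 and no edgeR adjusted p under 0.190. miR-122-5p was lower in CM at month 0 (-0.71 ± 0.60, edgeR adjusted p = 0.669), month 1 (-0.80 ± 0.33, 0.0853) and month 2 (-0.91 ± 0.44, 0.168), none of them called. The month 0 value was -1.68 without CM mouse 3334 and -0.18 without Ctrl mouse 3342. At month 0 miR-122-5p was at 1.36, 1.94 and 11.9 CPM (lowest, median, highest) in CM and 2.29, 4.53 and 15.8 CPM in Ctrl mice. Already at that point 5 of 7 CM libraries lay below every Ctrl library. At month 1 it was at 0.721, 1.41 and 3.31 CPM in CM and 1.65, 2.84 and 4.57 CPM in Ctrl mice. Again 5 of 7 CM libraries lay below every Ctrl library. That month was called without mouse 3334 (-0.98, edgeR adjusted p = 0.0398), without mouse 3368 (-1.07, 0.0312) and with raw library sizes (-0.94, 0.0452). At month 5 it was -0.14 ± 0.37 (0.851). At months 3, 4 and 6 it did not pass the filter on low counts and was not tested.

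miR-215-5p was called higher in CM at month 1 (2.20 ± 0.43, edgeR adjusted p = 0.00523), month 2 (1.38 ± 0.30, 0.0107) and month 3 (1.48 ± 0.40, 0.0179). At month 1 its CM libraries were at 8.34, 29.3 and 39.5 CPM and its Ctrl libraries at 2.83, 3.54 and 15 CPM, and 5 of 7 CM libraries lay above every Ctrl library. With the G number as a term the values were 2.31, 1.94 and 0.76 and the calls were lost (adjusted p of 0.0922, 0.137 and 0.743). Both arms shared 3 G numbers at month 1, 2 at month 2 and 1 at month 3. Over months 1 to 6 pooled, CM was higher within all 7 G numbers by a median of 1.28. There libraries of the same mouse count separately, and the arms are not matched by month. In the fit over all libraries with the G number months 1 and 2 were called (0.000158 and 0.0317) and month 3 was not (0.0649). Of the 6 partner sequences of the members it was the only one that passed the filter in these monthly tests.

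**Figure D5:**
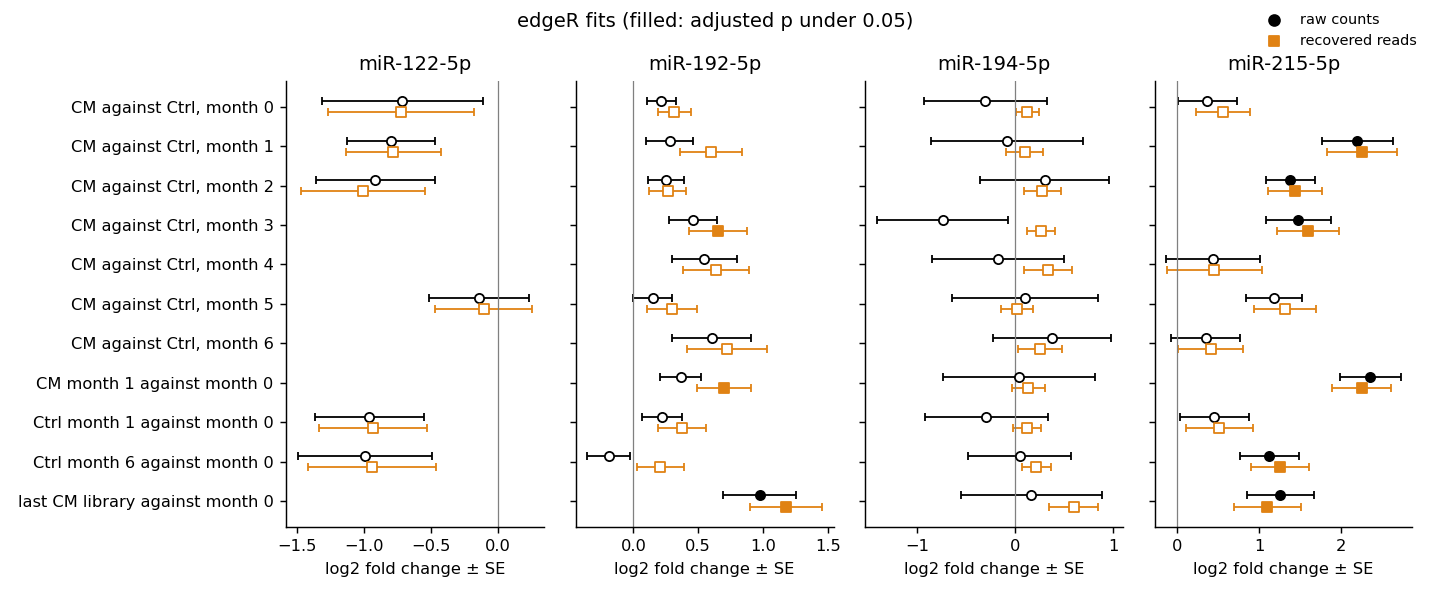
log2 fold changes ± SE from edgeR for 11 comparisons (rows) of miR-122-5p, miR-192-5p, miR-194-5p and miR-215-5p, with circles for raw counts and squares for reads recovered from the deposited CPM; a filled symbol has an adjusted p under 0.05 over all miRNAs tested. The bars of miR-194-5p reach 0.53 to 0.78 to each side for raw counts and 0.12 to 0.25 for recovered reads; comparisons without a symbol did not pass the filter.

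Other miRNAs moved at the same months. At month 1 all 5 erythroid miRNAs were called higher in CM (median log2 fold change 2.46, against -0.10 over all 472 tested), and their summed level was 47057, 65928 and 536013 CPM (lowest, median, highest) in CM and 26299, 31880 and 57919 CPM in Ctrl mice. Of these, miR-486a-5p and miR-486b-5p share reads, so their values are not separate and the sums count these reads for both. At month 3, 4 of the 5 were called higher (80%, beside 22% of all 455 miRNAs), with summed levels of 43120 to 95278 CPM in CM and 32886 to 52574 CPM in Ctrl mice. Of the 17 miRNAs of other tissues 13 were tested at month 1, of which 3 were higher in CM (miR-133a-3p of muscle by 3.98, miR-205-5p of epithelium by 1.84 and miR-375-3p of islets by 1.68) and none lower, a share of 23.1% beside the 27.5% of all miRNAs. Their summed level was 2169, 2858 and 4693 CPM in CM and 1485, 2416 and 3087 CPM in Ctrl mice. At month 3, 1 was higher (miR-133a-3p, 2.49) and 3 epithelial miRNAs were lower (miR-200b-3p by -1.61, miR-200c-3p by -1.28 and miR-141-3p by -1.17). Of the 13 tested tissue miRNAs this was 30.8%, beside 22% of all miRNAs at that month. None of the 7 leukocyte miRNAs was called at month 1 (median -0.46), and at month 3 1 was higher and 2 were lower (median -0.42). Their month 3 share was 42.9%, beside the same 22% of all miRNAs. The part of these cell and tissue markers in the differences of miR-192-5p and miR-215-5p was not tested.

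Month 1 was compared with month 0 within each arm. The number of CM mice with a higher miR-192-5p at month 1 than at month 0 was 6 of 7, with a median ratio of 1.73 and a range of 0.792 to 2.31, and among Ctrl mice it was also 6 of 7, with a median ratio of 1.11 and a range of 0.997 to 2.27. In CM mice, where 12.7% of 466 miRNAs were called, the log2 fold change was 0.36 ± 0.16 (edgeR adjusted p = 0.137) on raw counts. It was called on recovered reads (0.70 ± 0.21, adjusted p = 0.0278) and without mouse 3334 (0.50, 0.0388), and with the mouse as a block on recovered reads it was 0.67 ± 0.23 (0.0749). The count of called miRNAs in this comparison, 59, was 11 to 21 without any of mice 3336, 3338, 3357, 3368 or 3370. In Ctrl mice, where 0.63% of 476 were called, it was 0.22 ± 0.15 (0.480). The interaction, which tests whether the arms changed differently and called 8.46% of 520 miRNAs, gave 0.19 ± 0.21 for miR-192-5p (adjusted p = 0.616), 0.34 ± 1.06 for miR-194-5p (0.882) and 0.05 ± 0.79 for miR-122-5p (0.977).

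miR-122-5p fell below its month 0 level in 5 of 7 CM and 5 of 7 Ctrl mice, with median ratios of 0.461 and 0.754; the Ctrl log2 fold change of -0.96 ± 0.41 had an edgeR adjusted p of 0.280. miR-215-5p was higher at month 1 in 7 of 7 CM mice (median ratio 6.35) and in 2 of 7 Ctrl mice (median ratio 0.950). Its log2 fold change in CM was 2.35 ± 0.37 (edgeR adjusted p = 0.00186) and its interaction 1.97 ± 0.57 (0.0308). With the mouse as a block the interaction was 2.04 ± 0.52 (0.0410), and on recovered reads with that block 1.75 ± 0.57 (0.0704). Leaving out 1 mouse moved the interaction between 1.68 and 2.13, with adjusted p between 0.0212 and 0.101, and the call was lost for mice 3335, 3336, 3338, 3339, 3340, 3349, 3350, 3357, 3368 and 3370.

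Ctrl mice were also compared between months 0 and 6, for which edgeR called 20.5% of 474 miRNAs in Ctrl mice, and of the members none: miR-192-5p was at -0.19 ± 0.17 (edgeR adjusted p = 0.442), miR-194-5p at 0.04 ± 0.53 (0.961) and miR-122-5p at -0.99 ± 0.50 (0.174). On recovered reads miR-192-5p had the other sign, at 0.21 ± 0.18 (0.418). miR-215-5p was called (1.12 ± 0.36, edgeR adjusted p = 0.0418), was at 0.0563 with the mouse as a block, and lost the call without any of mice 3335, 3339, 3340, 3346, 3349 or 3350.

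The last library of each CM mouse, drawn between month 4 and month 10, was compared with its month 0 library, and edgeR called 39% of 446 miRNAs. miR-192-5p rose in this comparison. Its month 0 values were 226, 303 and 383 CPM (lowest, median, highest) and its last values 354, 603 and 1161 CPM. It was higher in all 7 mice, by 1.33 to 3.03 times with a median of 2.41, and 6 of the 7 last values lay above every month 0 value. The largest ratio was that of mouse 3334, whose month 0 and last libraries lie on either side of the crossing of running numbers. Whether both are from the same animal was not tested. The log2 fold change was 0.97 ± 0.28 (edgeR adjusted p = 0.0131), it was 0.85 ± 0.26 (0.0338) with the mouse as a block and 1.18 ± 0.28 (0.00397) on recovered reads. With the last library of months 4 to 6 in place of the last of all it was 0.50 ± 0.27 and not called (0.194), and without the filter on low counts it was 0.76 ± 0.27 (0.0644). Leaving out 1 mouse gave 0.79 to 1.05 on raw counts, with edgeR adjusted p from 0.00689 to 0.0458.

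The 4 mice whose last library was of month 4, 6 or 6.5 had the larger rises of miR-192-5p. Mouse 3334 went from 383 to 1161 CPM by month 6.5, mouse 3357 from 253 to 720 CPM by month 4, mouse 3338 from 226 to 569 CPM by month 4 and mouse 3341 from 308 to 741 CPM by month 6, and in each the last library was the highest of that mouse. Mouse 3336 (month 7), mouse 3370 (month 9) and mouse 3368 (month 10) were 1.74, 1.33 and 1.55 times their month 0 level, and mouse 3336 had been at 865 CPM at month 6.5. miR-194-5p separated the same mice, though not in the same order: it was 1.63 to 2.04 times its month 0 level in the first 4 mice, 1.25 times in mouse 3336, and 0.945 and 0.839 times in mice 3370 and 3368. This separation was seen in the values and was not tested.

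For miR-194-5p the comparison of last and first libraries gave 0.17 ± 0.72 (edgeR adjusted p = 0.865) on raw counts and 0.60 ± 0.25 (0.0593) on recovered reads, with 5 of 7 mice higher. miR-122-5p was lower in 6 of 7 mice, with 1.36 to 11.9 CPM at month 0 and 1.05 to 4.11 CPM in the last library, and it did not pass the filter. miR-215-5p was called on raw counts (1.26 ± 0.41, edgeR adjusted p = 0.0230) but not with the mouse as a block (1.25 ± 0.51, 0.0818). Leaving out mouse 3338, 3357, 3368 or 3370 also ended that call (adjusted p up to 0.0953). In these last libraries the erythroid sum was 36410 to 108821 CPM, against 34550 to 106308 CPM at month 0 in CM mice, and the tissue sum 1105 to 4225 CPM, against 2002 to 3775 CPM. The leukocyte sum was 67381 to 150022 CPM, against 109211 to 167360 CPM at month 0, and 3 of 7 leukocyte miRNAs (42.9%, beside 39% of all) were called lower. Of the erythroid miRNAs 2 were called higher and 1 lower, and of 12 tested tissue miRNAs 1 higher and 2 lower.

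In the validation cohort the arms were compared at point 5 alone, where limma on log2(CPM + 1) called 0% of 930 miRNAs, with 54 at an unadjusted p under 0.05; edgeR on recovered reads also called none, with 70. The CPM of this table are on another scale than those of the training table, so levels are not compared between cohorts. miR-192-5p was at 2299, 3466 and 10097 CPM (lowest, median, highest) in 6 CM mice and 2206, 2503 and 3463 CPM in 6 Ctrl mice, with 3 CM mice above every Ctrl mouse. The log2 fold change was 0.52 ± 0.33 (limma adjusted p = 0.899), and 0.24 without mouse 2684. miR-194-5p was at 4102, 7536 and 16569 CPM in CM and 5278, 6768 and 8796 CPM in Ctrl mice (0.18 ± 0.31, limma adjusted p = 0.979). miR-122-5p was at 0, 46.5 and 81 CPM in CM and 28.3, 65.2 and 80.4 CPM in Ctrl mice (-1.19 ± 0.76, limma adjusted p = 0.899), and the arms overlapped. That difference was -0.25 without mouse 2684. miR-215-5p, which was higher in CM in the training cohort, was not called here. It was at 17, 40.2 and 77.1 CPM in CM and 15.5, 35.7 and 68.5 CPM in Ctrl mice, and the arms overlapped.

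CM mouse 2684 stood apart at point 5, with the highest miR-192-5p and miR-194-5p of the 12 libraries and the only miR-122-5p at 0. It had 0 of 5163540 reads for miR-122-5p, which allows up to 0.581 RPM (reads per 1000000 recovered reads; 3 reads), while the other 11 libraries had 10 to 34 reads. Its miR-192-5p was at 705 RPM against 213 to 455 in the others, and its miR-194-5p at 1156 RPM against 492 to 708. Such limits cover counting error only. In RPM the arm medians of miR-192-5p and miR-194-5p at point 5 lay closer together than in CPM. They were 274 (CM) and 255 (Ctrl) for miR-192-5p, and 626 and 632 for miR-194-5p. For miR-215-5p the median was lower in CM in RPM, at 3.10 against 3.65 in Ctrl mice. The highest Ctrl values of miR-192-5p were 278 RPM and 3463 CPM. CM mouse 2700 was above all Ctrl mice in CPM (3909) but not in RPM (240). CM mouse 2718 was above them all in RPM (455) but not in CPM (2745). The part of the scaling in the arm differences was not tested. The 90 libraries of the other points held almost none of the members: miR-122-5p was at 0 in all, miR-192-5p had 1 or 2 reads in 9 and miR-194-5p in 6. At 0 reads 61 of these libraries had a limit (3 reads) under the lowest miR-192-5p level of point 5, 213 RPM, and 56 of the 61 were at 0. For miR-194-5p (lowest level 492 RPM) it was 81 libraries, of which 76 were at 0. Pooled, the 90 libraries held 4.66 RPM of miR-192-5p and 3.72 RPM of miR-194-5p. Their makeup differed too: a single miRNA took 36.7% to 99.1% of the reads (median 95.6%), and it was miR-5099 in 90 of 90, whereas the top miRNA of the point 5 libraries took 7.22% to 10.6%. For miR-122-5p none of the 90 libraries had a limit under its lowest level above 0 at point 5, so such a level was not detectable there. No comparison between arms was made in these libraries.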

How the data were processed

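Small RNA libraries of blood mononuclear cells were made with a TruSeq small RNA protocol. The authors trimmed adapters with cutadapt, aligned with Bowtie and normalized with edgeR. The study names the mouse genome mm9 and its labels GRCm38, and which of them each table used is not given in the sources used here. The deposited raw counts (whole reads per mature miRNA) cover the training cohort. The deposited CPM, which the authors scaled by TMM, behave as a normalized signal: each library is a set of whole multiples of 1 step, and 100% of values came out whole (tolerance 0.1), so reads were recovered from them.

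The count tests used edgeR 4.0.16 (quasi-likelihood, TMM, filterByExpr), with Benjamini-Hochberg adjustment over all miRNAs tested and a threshold of 0.05. limma 3.58.1 was used on log2(CPM + 1) for the validation cohort and DESeq2 1.42.0 as an alternative. Mouse means were compared by exact permutation of the mice, adjusted over all miRNAs with a mean of 1 CPM or more and not over the members alone. Tests were run on simulated counts first. Reads were not collapsed to molecules, so depth gives counting error only. Each miRNA test on the raw counts of training libraries rests on 1792809 to 7958411 reads a library.

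The members, their partners (the opposite arms and miR-215), the 3 most alike miRNAs of each member (highest Spearman correlation, mean of 10 CPM or more) and the marker lists were chosen with earlier results of these data known. Mice are the replicates. In comparisons over time the mouse number marks the same animal, which pairs the samples; same-mouse deviations correlated by -0.27 to 0.14 (Pearson, per mouse). The comparisons with month 0 share its libraries. Alternatives are in the closing section.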

Additional observations from a re-analysis of the deposited data

Results flagged for a closer look

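Single libraries stood apart from the rest of their group, by the gap to the nearest value over the range, in 8 of 60 groups of 4 to 10 libraries. For independent groups of normally distributed values chance gives about 1 in 20. The values here were CPM without a log, and the groups share mice, so the 8 are not compared with that rate. For miR-122-5p these were CM mouse 3334 at month 0 (11.9 CPM, next 2.67) and at month 4 (16.6 CPM, next 1.75), Ctrl mouse 3342 at month 0 (15.8 CPM, next 5.42) and, at the low end, CM mouse 3370 at month 6 (0.318 CPM, next 1.08). For miR-192-5p they were Ctrl mouse 3335 at month 10 (329 CPM, next 189) and CM mouse 2684 at validation point 5 (10097 CPM, next 4526). For miR-194-5p they were Ctrl mouse 3349 at month 2, which was low (193 CPM, next 584), and Ctrl mouse 3335 at month 10 (975 CPM, next 554). Mice 3334 and 3335, whose running numbers cross, gave 4 of the 8.

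The arms changed differently from month 0 to month 1 for miR-215-5p, with an interaction of 1.97 on the log2 scale (edgeR adjusted p = 0.0308), and 10 of the 14 fits that left out 1 mouse lost this call. Outside the months that were tested, the arms overlapped for miR-192-5p at month 7 (378 to 603 CPM in 3 CM and up to 379 CPM in Ctrl libraries) and at month 8 (425 and 436 CPM in 2 CM and up to 508 CPM in Ctrl libraries). They did not at months 9 and 10: it was at 401 and 429 CPM in the 2 CM libraries of month 9 against 293 CPM in the highest of 7 Ctrl libraries, and at 354 CPM in the 1 CM library of month 10 against 329 CPM in the highest of 6. These CM libraries came from mice 3368 and 3370 alone, and only the order with CM above was looked for. The share of all miRNAs without overlap was not computed, so no conclusion is drawn from this.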

How the results depend on the processing

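Of 803 alternative values for the 3 members, 701 kept their direction and their side of the threshold, 20 changed side only and 82 changed sign, 60 of the latter for miR-194-5p. Values are log2 differences, and apart from the calls named below none with a changed sign was past the threshold. The settings with recovered reads, without mice 3334 and 3335, with all training libraries and the G number in 1 fit, and with the last library of months 4 to 6 were chosen after seeing the data. The causes were not tested.

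On recovered reads, miR-194-5p changed sign to 0.12, 0.10, 0.26 and 0.34 at months 0, 1, 3 and 4, to 0.12 from month 0 to 1 in Ctrl mice and to -0.073 in the interaction; miR-122-5p changed to -0.078 in the interaction and miR-192-5p to 0.21 from month 0 to 6 in Ctrl mice. miR-192-5p was called at month 3 (0.65) and from month 0 to 1 in CM mice (0.70). Without mice 3334 and 3335, raw counts gave miR-194-5p 0.20 at month 1, 0.034 at month 4 and -0.0039 from month 0 to 6 in Ctrl mice, miR-122-5p 0.22 at month 5, and miR-215-5p -0.027 at month 4. Calls were gained there for miR-122-5p at month 1 (-1.07), for miR-192-5p at month 3 (0.56) and from month 0 to 1 in CM mice (0.50), and in mouse means for miR-122-5p (-0.48) and miR-194-5p (0.25). With both changes, miR-194-5p was 0.075, 0.13, 0.39 and 0.35 at months 0, 1, 3 and 4 and 0.13 from month 0 to 1 in Ctrl mice, miR-215-5p -0.034 at month 4, miR-122-5p 0.29 at month 5, and miR-192-5p 0.12 from month 0 to 6 in Ctrl mice, with miR-192-5p called at month 3 (0.79) and from month 0 to 1 in CM mice (0.87).

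With the G number as a term, miR-194-5p was 0.091 at month 1 and -0.37 at month 2, and miR-192-5p -0.26 at month 3, where 1 library of each arm shared a G number; month 4 could not be fitted. The fit over all training libraries with the G number gave miR-194-5p 0.074 at month 1, and on recovered reads 0.17, 0.10, 0.20, 0.36 and -0.0042 at months 0, 1, 3, 4 and 5. With sex as a term miR-194-5p was 0.97 at month 1 and 0.10 at month 4, and DESeq2 gave 0.053 at month 1. Raw library sizes gave miR-194-5p -0.056 for last against first, -0.27 from month 0 to 1 in CM mice, -0.0055 in the interaction and -0.014 from month 0 to 6 in Ctrl mice, miR-192-5p -0.073 and miR-122-5p -0.32 in the interaction, and a call of miR-122-5p at month 1 (-0.94). Without the low-count filter, miR-192-5p last against first was 0.76 and not called, miR-194-5p was -0.031 from month 0 to 1 in CM mice and miR-122-5p -0.078 in the interaction, where a minimum of 10 counts gave -0.074. With the last library of months 4 to 6, miR-192-5p was 0.50 and not called. CPM from raw counts gave miR-194-5p mouse means of -0.26 (TMM) and -0.28 (raw sizes).

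With the mouse as a block, miR-194-5p was -0.13 from month 0 to 1 in CM mice and -0.20 from month 0 to 6 in Ctrl mice. On recovered reads with the block it was 0.088 from month 0 to 1 in Ctrl mice and -0.043 in the interaction, miR-122-5p -0.084 in the interaction and miR-192-5p 0.16 from month 0 to 6 in Ctrl mice. The block moved the miRNAs called from 59 to 16 in CM mice from month 0 to 1 and from 44 to 21 in the interaction.

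Leaving out 1 mouse gave miR-194-5p ranges of -0.38 to 0.18 (month 1), -0.94 to 0.074 (month 4), -0.16 to 0.37 (month 5), -0.35 to 0.43 (last against first), -0.51 to 0.41 (CM month 0 to 1), -0.27 to 0.65 (interaction), -0.30 to 0.27 (Ctrl month 0 to 6), -0.042 to 0.36 (validation) and 0.15 to 0.25 (mouse means, called without mouse 3334 or 3342). For miR-122-5p they were -1.68 to -0.18 (month 0), -1.07 to -0.66 (month 1), -0.57 to 0.10 (month 5), -0.66 to 0.69 (interaction), -1.52 to -0.25 (validation) and -0.49 to -0.28 (mouse means). For miR-192-5p they were 0.12 to 0.27 (month 0), 0.22 to 0.42 (month 1), 0.31 to 0.56 (month 3), 0.34 to 0.62 (month 4), 0.060 to 0.24 (month 5), 0.25 to 0.74 (month 6), 0.061 to 0.29 (Ctrl month 0 to 1), 0.32 to 0.50 (CM month 0 to 1), 0.0051 to 0.24 (interaction) and 0.24 to 0.67 (validation), and for miR-215-5p -0.021 to 0.44 (validation).

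The number of miRNAs called moved by over 1.5 times in many settings, of which these are examples: the G number as a term at months 1 (10), 2 (0) and 3 (6), all training libraries in 1 fit at months 4 (70), 5 (18) and 6 (19), no mice 3334 and 3335 at month 5 (53), DESeq2 at months 2 (1.58 times the 65), 4 (23) and 5 (21), for Ctrl month 0 to 1 (18) and in the interaction (69), recovered reads at months 2 (1.65 times) and 4 (10) and in the interaction (67), no filter at month 2 (42) and in the interaction (22), raw library sizes for CM month 0 to 1 (39) and in the interaction (27), and the last library of months 4 to 6 (86). Leaving out 1 mouse gave 11 to 78 for CM month 0 to 1, 20 to 69 in the interaction, 51 to 98 for Ctrl month 0 to 6, 0 to 14 at month 4, 0 to 37 at month 5, and 1.95 times the 65 at month 2 without mouse 3349. Depth limits miR-122-5p, at 3 raw reads or fewer in 17 libraries, and more so in the 90 validation libraries outside point 5.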
